A study of Homo sapiens with 8 samples.

Results

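The experiment set human pluripotent stem cells that lack a motor subunit of kinesin-2 beside isogenic controls, in a pair of cell lines. All 8 libraries of the series took part: 4 from knockout cells and 4 from controls. A gene was called consistent where every knockout library lay on the same side of both controls of its own line. Of 13238 genes tested, 1392 were consistent, 723 of them higher and 669 lower in knockouts. The measured values chose these genes, so their number and direction are a description with no test.

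WTC11 is an induced pluripotent stem cell line and WA09 an embryonic one. The WTC11 libraries comprised 2 controls, 1 made with KIF3B guide 1 and 1 with guide 2, and 3 KIF3B-/- libraries, of which 2 came from guide 1 and 1 from guide 2. The WA09 libraries comprised 2 controls and 1 KIF3A-/- library, all from KIF3A guide 1, so the KIF3A knockout has no replicate. All cells were undifferentiated and untreated, and each library was made from 100 to 1000 cells. The labels do not tie each library to a clone or culture of its own, so that a p-value covers the spread from library to library, part or all of which may be technical. The missing gene and the cell line cannot be told apart, since each subunit was removed in a different line.

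Kinesin-2 is a microtubule motor built from KIF3A, KIF3B or KIF3C and the adaptor KIFAP3. It hauls trains of intraflagellar transport proteins from the base of the primary cilium to its tip, and cells without it build no cilium or a defective one. The cilium is a sensory antenna on the cell surface in which the Hedgehog pathway is processed, and kinesin-2 also moves other cargo in the cell body.

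Total counts per library ran from 2161890 to 2875163. In WTC11 the knockouts held more counts (2387357 to 2875163) than the controls (2161890 and 2234379), while in WA09 the knockout held fewer (2236845) than the controls (2559733 and 2605256). Levels are given in CPM, counts scaled to a common library total by the TMM method, and 3 counts correspond to 1.04 to 1.39 CPM. The 12 pluripotency markers summed to between 4831 and 6405 CPM in every library, and all were detected. The markers picked for other lineages, 2 to 4 each, summed to at most 6.31 CPM for mesoderm and 30.9 CPM for endoderm. Neuroectoderm markers reached 27.5 CPM and trophectoderm markers 4.16 CPM, and both neural crest markers were at 0. Some other genes of the lineage lists used below were higher. KDR, of the mesoderm list, held 95.2 to 179 CPM over the libraries, and KRT18, of the trophectoderm list, 165.5 to 258 CPM. CER1, of the endoderm list, held 65.3 CPM in KIF3B knockout 2 and 2.14 to 16.5 CPM in the others. The 5 fibroblast markers summed to 329.9 to 489.7 CPM, and 2 of them were at 0 in all libraries. Most of the sum was THY1, which pluripotent cells also carry (296 to 446 CPM). COL1A1 stood at 126 CPM in KIF3B knockout 2 and at 21.2 to 47.5 CPM in the others. A lower level in a bulk sample cannot tell fewer cells of a type from less RNA per cell.

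In the pooled comparison, adjusted for cell line, 0 genes passed edgeR's quasi-likelihood test (0% of 13238, smallest Benjamini-Hochberg adjusted p = 0.528), while 1137 had an unadjusted p under 0.05 (8.59%). DESeq2, run as an alternative, called 37 genes (0.279%), all of them higher in knockouts. Of these 37, 36 were consistent higher, beside 5.46% of all tested genes. The calls and the rule use the same counts, so the overlap is no separate support. The 37 had a median longest transcript of 6483 bases, beside 3646 over all tested genes (transcript length is described below). Without a filter on low counts edgeR called 154 of 26388 (0.584%), of which 87 were consistent higher and 5 lower. Their median longest transcript was 5753.5 bases. Within the lines, 0 of 14216 genes passed in the KIF3B contrast (0%), the KIF3A contrast (0%) or the test of their difference (0%). The fold changes below are therefore values, none of which passed the edgeR test over all genes.

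The upstream sequences of 3 genes are shown first, the 2 consistent genes with the smallest pooled p among those higher in knockouts and the 1 among those lower. Each line gives the 250 bases before the RefSeq start of transcription, 5′ to 3′ on the gene's strand, from the RefSeq promoter table on GRCh38.p14. The ZNF594 stretch is chr17:5191869-5192118 on the minus strand, that of NNT is chr5:43602425-43602674 on the plus strand, and that of IL27RA is chr19:14031512-14031761 on the plus strand. Capitals mark matches on either strand to the letters GGAATG that TEAD factors bind, to the E-box letters CACGTG, to the CCAAT box, to the GC box letters GGGCGG and to the letters CCGGAAG that ETS factors bind.
ZNF594: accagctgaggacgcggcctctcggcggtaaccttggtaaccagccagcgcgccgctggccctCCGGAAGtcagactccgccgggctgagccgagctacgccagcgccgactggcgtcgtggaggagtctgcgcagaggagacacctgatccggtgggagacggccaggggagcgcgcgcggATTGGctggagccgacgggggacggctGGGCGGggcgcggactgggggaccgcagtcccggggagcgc
NNT: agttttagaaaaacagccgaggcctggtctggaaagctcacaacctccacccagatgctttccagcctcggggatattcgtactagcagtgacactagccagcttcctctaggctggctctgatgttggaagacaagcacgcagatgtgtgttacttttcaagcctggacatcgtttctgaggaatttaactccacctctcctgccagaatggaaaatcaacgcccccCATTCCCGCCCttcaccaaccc
IL27RA: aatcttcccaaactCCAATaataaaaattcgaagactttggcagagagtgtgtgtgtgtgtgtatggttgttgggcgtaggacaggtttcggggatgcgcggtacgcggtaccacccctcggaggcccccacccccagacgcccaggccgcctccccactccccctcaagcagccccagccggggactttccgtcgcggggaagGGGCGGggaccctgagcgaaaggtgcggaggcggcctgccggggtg
In NNT the capital run joins an overlapping TEAD and GC box match. Of 27305 upstream stretches of this length in the table, 11.9% held the TEAD letters, 6.49% the E-box, 33% CCAAT, 42.3% the GC box and 8.82% the ETS letters. No set of letters was found in all 3 stretches apart from the GC box. A match is a description of the letters and no evidence of binding.

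ZNF594 encodes a zinc finger protein (ENSG00000180626, GRCh38 chromosome 17, 5179536 to 5191883) and had the smallest pooled p. Its level was 13.4 and 13.5 CPM in the WTC11 controls and 34.7, 60.02 and 58.3 CPM in the KIF3B knockouts. In WA09 it was 9.42 and 5.57 CPM in the controls and 22.3 CPM in the KIF3A knockout. All 4 knockouts thus lay above all 4 controls, by 3.79 times the control mean in WTC11 and 2.97 times in WA09. The pooled log2 fold change was 1.80 ± 0.32 (SE; edgeR adjusted p = 0.528).

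NNT, the mitochondrial transhydrogenase that makes NADPH from NADH (ENSG00000112992, chromosome 5, 43602692 to 43707405), stood at 5.08 and 9.46 CPM in the WTC11 controls. The KIF3B knockouts held 34.4, 41.04 and 31.8 CPM. The WA09 controls held 22.4 and 21.9 CPM and the KIF3A knockout 49.4 CPM. Both lines therefore separated, and the WTC11 controls were the lowest of the 4 groups. The fold was 4.91 in WTC11 and 2.23 in WA09. An antisense gene, NNT-AS1, overlaps NNT, and use of strand in the counting is not given in the sources used here.

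DLG5, a scaffold of cell junctions that also restrains the Hippo kinases (chromosome 10, 77790791 to 77926526), held 10.2 and 6.76 CPM in the WTC11 controls and 46.05, 50.7 and 42.2 CPM in the KIF3B knockouts. In WA09 it held 13.3 and 13.0 CPM in the controls against 26.3 CPM. The distance to the controls was 5.47-fold in WTC11 and 2.00-fold in WA09. TEAD1, the DNA-binding partner of YAP and TAZ (chromosome 11, 12674591 to 12944483), held 29.1 and 19.8 CPM in the WTC11 controls and 63.8, 59.6 and 68.3 CPM in the KIF3B knockouts. In WA09 it held 36.5 and 30.1 CPM against 53.5 CPM. For both genes each knockout exceeded each control of either line.

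GCC1, a golgin that tethers vesicles at the trans-Golgi, held 9.71 and 25.2 CPM in the WTC11 controls, 72.5, 93.6 and 86.5 CPM in the KIF3B knockouts, 27.5 and 26.4 CPM in the controls of WA09 and 46.8 CPM in the KIF3A knockout. MAP3K4, a stress-activated kinase, held 25.4 and 29.3 CPM, then 53.6, 55.2 and 94.4 CPM in WTC11, and 24.3 and 25.99 CPM, then 54.8 CPM in WA09. Its fold was alike in the lines, 2.48 in WTC11 and 2.18 in WA09, whereas that of GCC1 was 4.82 and 1.74.

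Another 5 of the 12 consistent genes with the smallest p followed the same pattern with different sizes. AASS, of lysine breakdown, was the most abundant, at 210.5 to 245 CPM in controls and 295 to 430.3 CPM in knockouts, and had small folds of 1.58 in WTC11 and 1.31 in WA09. COPG1, a coat subunit of Golgi vesicles, held 140 to 188 CPM in controls and 201 to 272 CPM in knockouts. CHSY1, which extends chondroitin chains, held 10.8 to 22.7 CPM against 35.2 to 59.7 CPM. TRAM2, of the endoplasmic reticulum, held 26.7 to 34.2 CPM against 44.5 to 105 CPM. In these 4 genes knockouts and controls did not overlap across the lines. C14orf132 did overlap, with 30.8 and 32.2 CPM in the controls of WA09 and 31.8 CPM in KIF3B knockout 2.

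**Figure D1:**
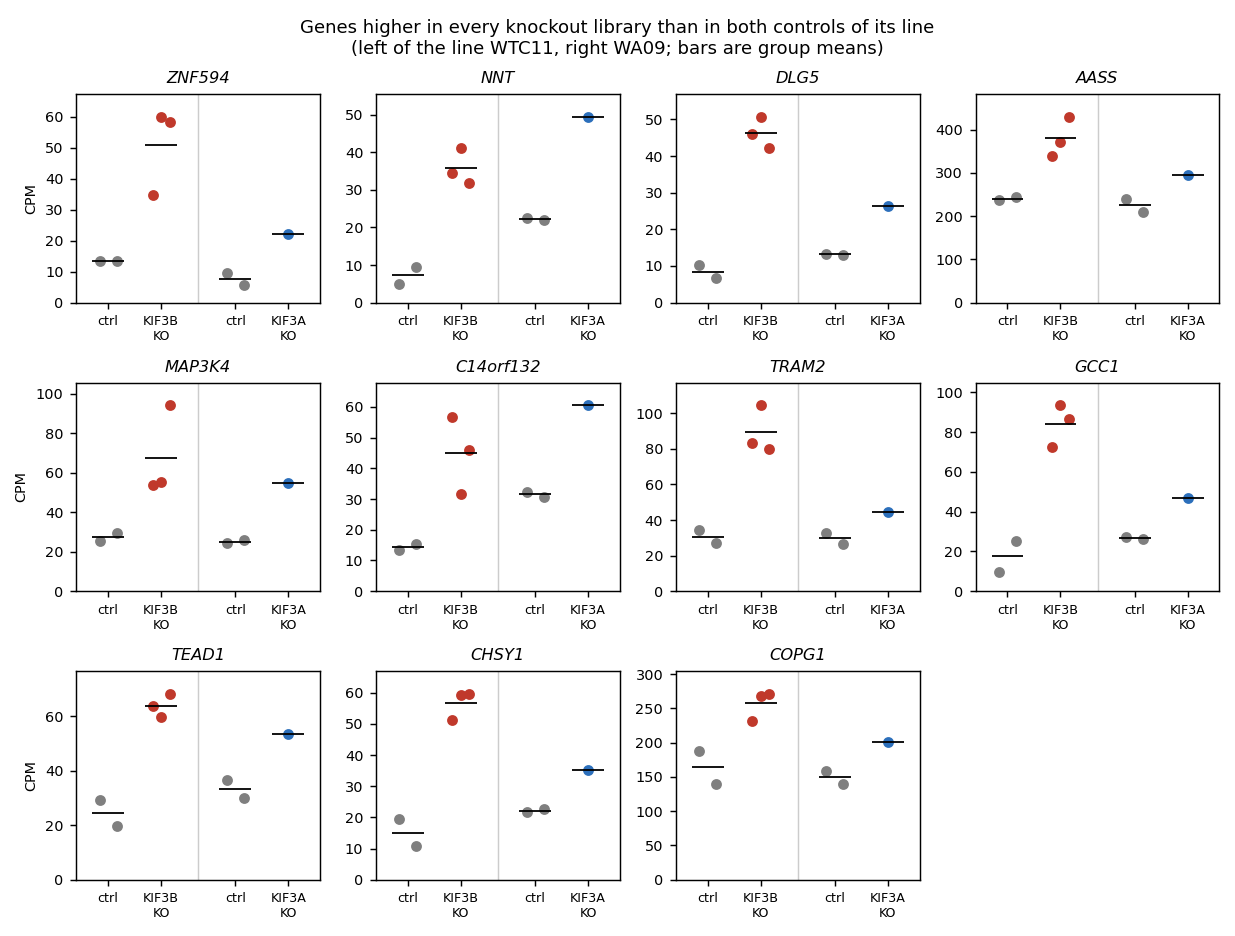
Level in CPM (vertical axes, from 0) of 11 of the 12 consistent genes of smallest pooled p that were higher in knockouts, 1 point per library, with bars at group means; grey points are controls, red KIF3B knockouts and blue the KIF3A knockout. In each panel the knockout points lie above both controls of their line, and in 10 of the 11 they lie above all 4 controls.

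Among the consistent genes lower in knockouts, IL27RA had the smallest p. It encodes a receptor chain for the cytokine interleukin-27 (ENSG00000104998, chromosome 19, 14031748 to 14053216). It stood at 81.8 and 41.9 CPM in the WTC11 controls and 36.6, 26.9 and 22.9 CPM in the KIF3B knockouts. In WA09 it stood at 73.0 and 81.3 CPM against 40.5 CPM. The knockouts lay below all 4 controls, although the KIF3A knockout and WTC11 control 2 were close, and the level was 0.466 of control in WTC11 and 0.525 in WA09. The pooled log2 fold change was -1.04 ± 0.26 (edgeR adjusted p = 0.528).

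ARSJ, a sulfatase family member (chromosome 4, 113900284 to 113979727), was the 1 gene at least 2-fold lower in each line with a mean of at least 10 CPM (0.0096% of 10421 genes). Its level was 18.03 and 35.6 CPM in the WTC11 controls and 7.93, 13.2 and 11.1 CPM in the KIF3B knockouts. In WA09 it was 21.97 and 19.7 CPM in the controls and 1.78 CPM in the KIF3A knockout, which rests on 4 counts against 56 and 53. The pooled log2 fold change was -1.87 ± 0.48. The line effects were -1.32 ± 0.44 in WTC11 and -3.52 ± 0.81 in WA09.

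USP4, a deubiquitinase, held 64.7 and 58.6 CPM in the WTC11 controls, 33.6, 28.7 and 47.9 CPM in the KIF3B knockouts, 76.5 and 73.9 CPM in the controls of WA09 and 37.4 CPM in the KIF3A knockout. It was one of the lower genes with a larger distance in WA09 (0.498 of control) than in WTC11 (0.596). SLC2A13, a proton-coupled inositol transporter, held 38.4 and 34.7 CPM, then 27.2, 10.6 and 17.2 CPM in WTC11, and 31.4 and 34.5 CPM, then 12.03 CPM in WA09. CMC1, of mitochondrial complex IV assembly, stood at 0.452 of control in WTC11 and 0.839 in WA09.

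A further 6 of the 12 lower genes were abundant ones. BID, the BH3 protein that links death receptors to mitochondria, held 174 to 203 CPM in controls and 115 to 151 CPM in knockouts. ATG5, which autophagosomes need to form, held 187 to 245 CPM in controls and 143 to 191 CPM in knockouts. ESCO1, a cohesin acetyltransferase, NSL1, a kinetochore subunit, ESF1, of ribosomal RNA processing, and CCDC25 stood between 0.581 and 0.68 of control in WTC11 and between 0.815 and 0.895 in WA09. In 8 of the 11 described the knockouts lay below all 4 controls, the exceptions being ATG5, ESCO1 and CCDC25.

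**Figure D2:**
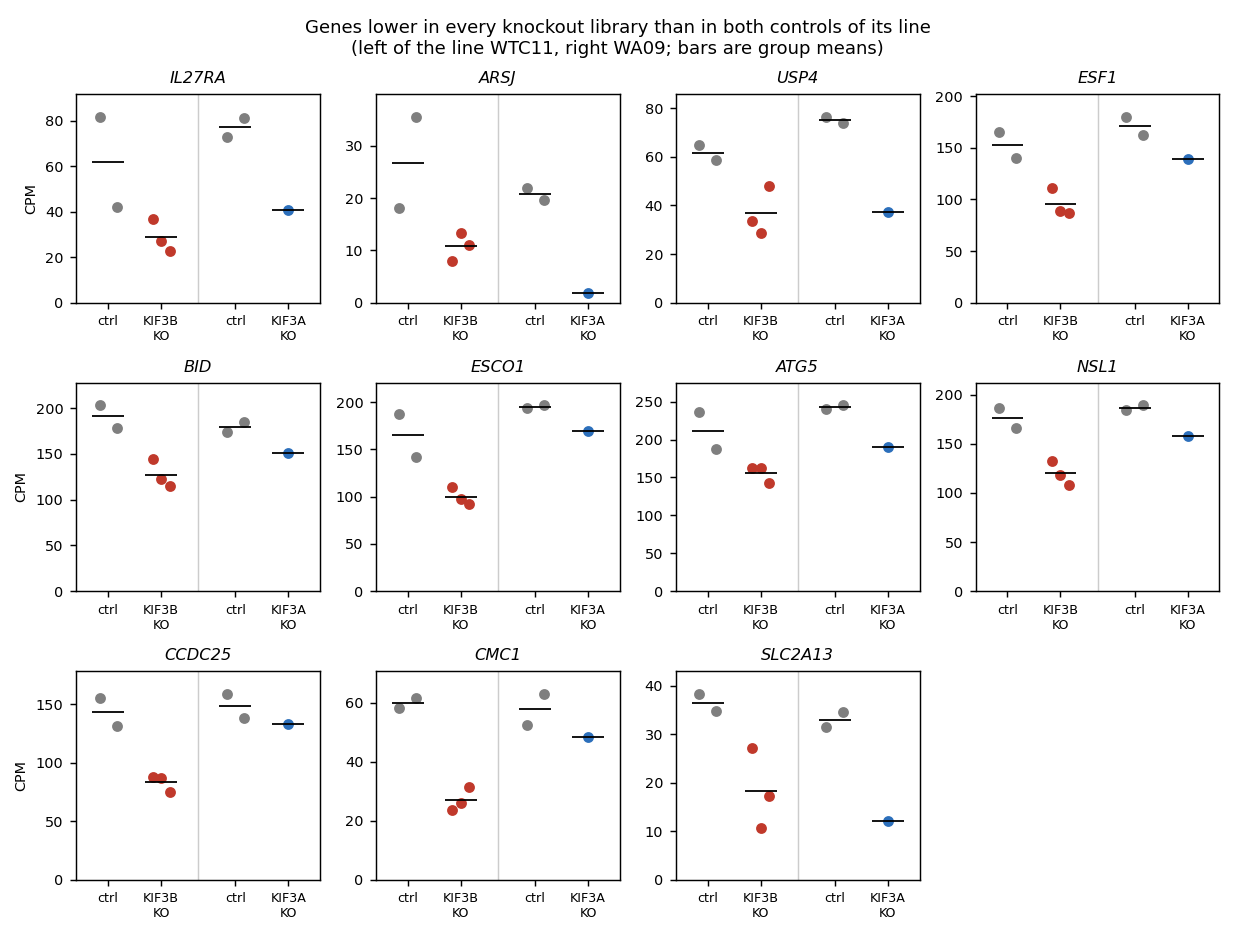
Level in CPM (vertical axes, from 0) of 11 of the 12 consistent genes of smallest pooled p that were lower in knockouts, drawn as points per library with bars at group means; grey points are controls, red KIF3B knockouts and blue the KIF3A knockout. ARSJ and SLC2A13 have their lowest or near-lowest point in the KIF3A knockout, while the other genes differ less in WA09 than in WTC11, apart from USP4.

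Consistent genes with knockout and control means at least 2-fold apart in each line and a mean of at least 10 CPM numbered 23 higher (0.221% of 10421) against ARSJ alone lower. Beside ZNF594, NNT and MAP3K4, the 10 of smallest p held ZNF318 and ZNF607 (zinc finger proteins), CEP128 (a centriole appendage protein), STS (steroid sulfatase), FAXC, KANSL1 (of a histone acetyltransferase complex) and HEG1 (a membrane mucin of cell junctions). STS had 5 and 2 counts in the WTC11 controls and 46, 31 and 58 in the KIF3B knockouts, against 21 and 12 in the WA09 controls and 34 in the KIF3A knockout. HEG1 had 26 and 8 counts in the WTC11 controls and 38, 67 and 83 in the KIF3B knockouts. In WA09 it had 5 and 3 counts against 20, so its 5.79-fold distance there rests on few counts. CEP128 stood at 4.62 and 4.51 CPM, then 18.1, 10.6 and 30.4 CPM in WTC11, and at 9.42 and 7.80 CPM, then 23.6 CPM in WA09. KANSL1, ZNF318, NNT, MAP3K4, TRAM2, GCC1, USP4, CMC1 and CCDC25 each overlap another tested gene, and reads of both cannot be told apart without strand.

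Consistent genes made up 5.46% of the tested genes on the higher side and 5.05% on the lower side, while 1839 genes (13.9%) were opposed, that is, on 1 side of the controls in WTC11 and on the other in WA09. In 315 genes (2.38%) every knockout lay above all 4 controls of both lines, and in 239 (1.81%) below all 4. The KIF3B knockouts all lay above both controls in 2241 genes (16.9%) and below in 2465 (18.6%). The lone KIF3A knockout lay above its 2 controls in 4696 genes (35.5%) and below in 4283 (32.4%), a condition that 1 library meets more easily than 3 do.

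Of the 2241 genes higher in the KIF3B knockouts, 32.3% were also above the controls in the KIF3A knockout and 34% were below them. Of the 2465 genes lower in the KIF3B knockouts, 27.1% were lower in the KIF3A knockout and 43.7% were higher. Among the 8532 genes whose WTC11 libraries overlapped, 33.9% were above and 33.4% below the controls in WA09. In neither direction did most of the genes set apart in WTC11 lie on the same side in WA09; these shares are a description with no test. Across the 13238 genes the line effects had a Spearman correlation of -0.02 and a Pearson correlation of -0.04, a description over genes, which are not independent replicates; the lines share no library.

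**Figure D3:**
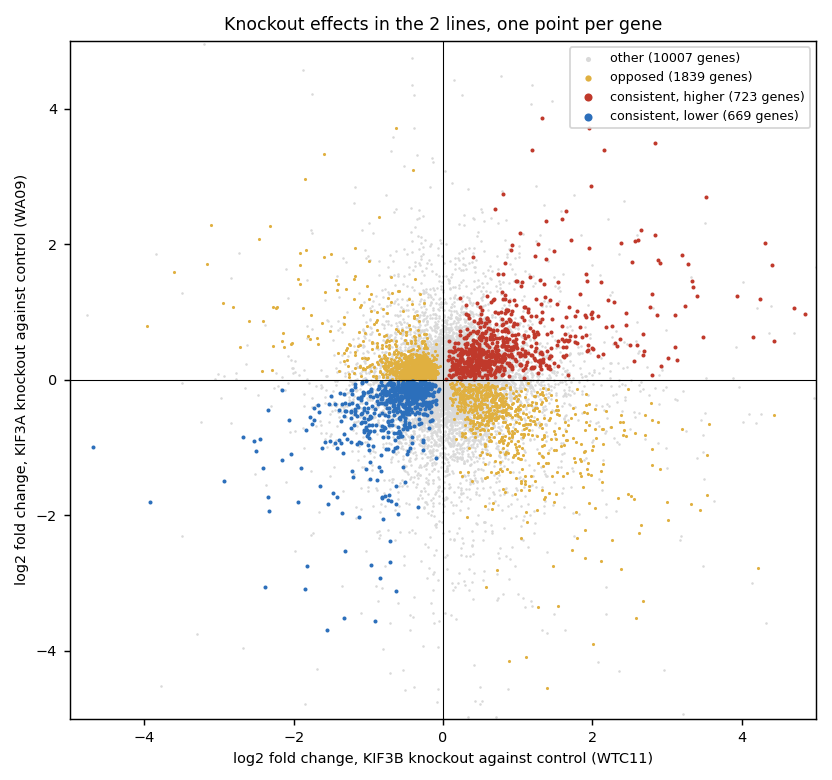
Log2 fold change of each tested gene in the KIF3B knockouts against WTC11 controls (horizontal) and in the KIF3A knockout against WA09 controls (vertical), coloured by class; 204 genes lie beyond the axis limits of 5. The cloud has no tilt (Spearman -0.02), and the 1839 opposed genes outnumber the 723 higher and 669 lower consistent genes together.

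The opposed genes fell into sets of different kinds. The 1078 genes (8.14% of those tested) lower in the KIF3B knockouts and higher in the KIF3A knockout had a median longest transcript of 2006 bases and a median level of 113 CPM, and 60 of the 77 cytosolic ribosomal protein genes were among them. The 761 genes (5.75%) higher in the KIF3B knockouts and lower in the KIF3A knockout had a median transcript of 4668 bases and a median level of 42.4 CPM, and held no ribosomal protein gene. For ribosomal proteins the median log2 fold change was -0.35 in WTC11, with 69 of 77 below both controls in all knockouts, and 0.11 in WA09, with 65 of 77 above both controls. RPL24 and RPL14 were consistent and lower and RPS28 consistent and higher, and RPL14 was not once trends with transcript length (below) were removed. RPS28 had 6 and 4 counts in the WTC11 controls and 18, 8 and 21 in the KIF3B knockouts. In WA09 it had 10 and 12 counts against 11, so its side there rests on the scaling. Ribosomal protein genes have pseudogenes, so how their reads were assigned is uncertain.

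Transcript length separated the classes. The longest transcript had a median of 4592 bases in consistent higher genes, 2478 in consistent lower genes, 3198 in opposed genes and 3646 in all tested genes. With tested genes cut by length into 5 groups of like size, in the shortest (up to 2113 bases) 1.09% were consistent higher and 10.1% consistent lower, and in the longest (from 5960 bases) 8.02% and 2.68%. Libraries differed in how their counts followed length: the rank correlation, over genes, of transcript length with a library's log level minus the mean of all 8 was -0.19 and -0.09 in the WTC11 controls and 0.19, 0.31 and 0.35 in the KIF3B knockouts. In WA09 it was -0.08 and -0.23 in the controls and -0.22 in the KIF3A knockout. With each library's trend with length removed, 671 genes were consistent higher and 635 lower, 512 and 431 of which were in the classes as counted (70.8% of the 723 and 64.4% of the 669), and 1395 were opposed. The genes of smallest p described by level above, and the 7 further genes at least 2-fold higher in each line that are named, all stayed consistent once the trend was removed. Of the consistent members of the gene lists described below, 71 stayed consistent and 30 did not.

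**Figure D4:**
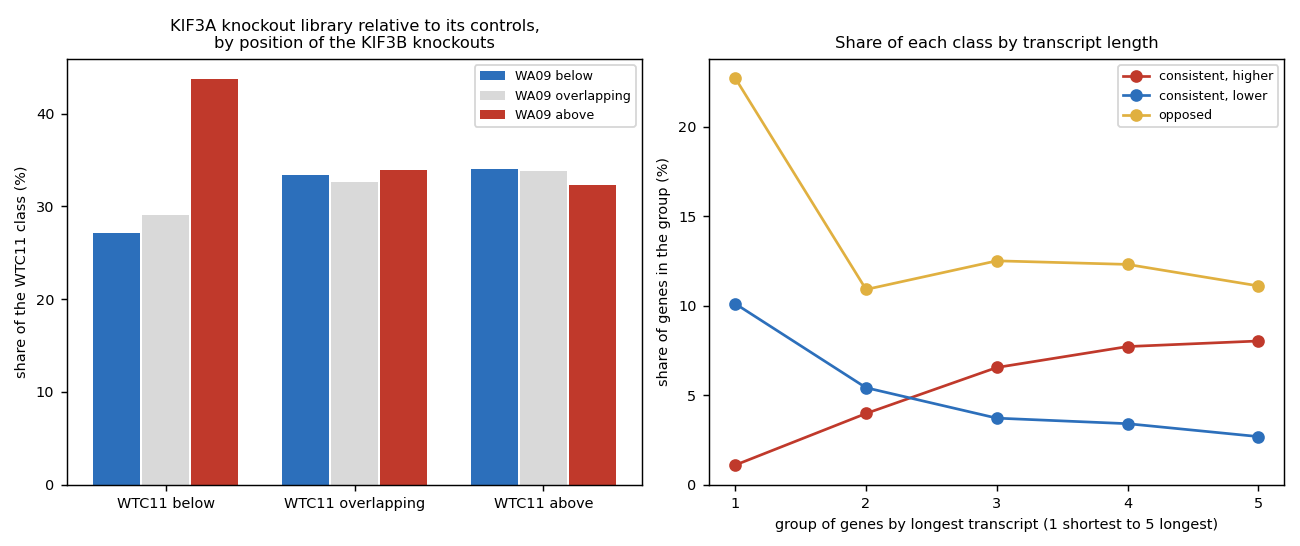
Left, share of genes (percent, bars from 0) whose KIF3A knockout library lay below, between or above its controls, for genes whose KIF3B knockouts lay below both controls, overlapped them or lay above; right, share of genes in each of 5 equal groups by transcript length that were consistent higher, consistent lower or opposed. Genes lower in the KIF3B knockouts were above the WA09 controls in 43.7%, and consistent higher genes went from 1.09% among the shortest genes to 8.02% among the longest.

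Consistency also varied with level. Of genes with a mean under 10 CPM, 4.19% were consistent higher and 4.08% lower, and of the 1163 genes with at least 200 CPM 7.57% and 4.3%. Opposed genes made up 7.53% of the lowest and 24.9% of the highest of these groups. Consistent higher genes were further from their controls than lower ones: the median fold was 1.60 in WTC11 and 1.33 in WA09, and for lower genes the median level was 0.687 and 0.836 of control. At the edge of the rule lay PGAP1, a consistent higher gene of 30.9, 23.8 and 29.3 CPM in the KIF3B knockouts whose KIF3A knockout, at 16.48 CPM, just exceeded the higher control. DUSP2 just missed it, with 26.7 CPM in both the KIF3A knockout and the nearer control. On the lower side C9orf135 was just inside and ADA just outside.

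Genes that build or serve the cilium were described in lists, each beside the shares of all tested genes, 5.46% consistent higher and 5.05% lower, and a median pooled log2 fold change of 0.01. The 5 kinesin-2 genes held 0 consistent members. KIF3A, the subunit removed in WA09, stood at 33.4 CPM in the KIF3A knockout against 68.3 and 62 CPM, and at 51.3, 40.6 and 47.2 CPM in the KIF3B knockouts against 61.01 and 46.4 CPM. KIF3B stood at 48.7, 38.0 and 38.2 CPM in the KIF3B knockouts, above both controls (32.8 and 26.6 CPM). Counts per gene do not check a small change in the coding sequence, so knockout status rests on the labels. Of 32 other kinesins 4 were higher and 1 lower: KIF1A, KIF1B and KIF5C, transporters of vesicles, and KIF1C had pooled log2 fold changes of 0.35, 0.34, 0.41 and 0.25, and the mitotic KIF20B of -0.41. KIF1A, KIF1B and KIF1C dropped out with the length trend removed, which left KIF5C as the 1 higher member, with 2 lower. KIF1C lies outside the rule for named genes and was named after its values were seen.

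Intraflagellar transport and dynein-2 genes, the cargo trains of kinesin-2 and their return motor, held 0 consistent higher and 3 lower of 31 (median -0.05). IFT81, a subunit that carries tubulin, had the largest distance, with 84.1 and 45.5 CPM in the WTC11 controls and 35.5, 26.04 and 28.6 CPM in the KIF3B knockouts. In WA09 it held 67.9 and 58.7 CPM against 51.7 CPM. The others, HSPB11 (IFT25) at -0.40 ± 0.18 and IFT43 at -0.30 ± 0.23, lost their place when the length trend was removed.

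The BBSome, a coat that moves membrane proteins in the cilium, and the transition zone, the gate at its base, had, as counted, the largest share of consistent lower genes of the lists with at least 10 genes tested: 6 of 31 lower (19.4%) and 2 higher (6.45%), with a median of -0.17. BBS12, a chaperone of BBSome assembly, held 52.2 and 29.7 CPM in the WTC11 controls and 20.4, 26.9 and 16.8 CPM in the KIF3B knockouts, and 24.3 and 27.8 CPM against 13.4 CPM in WA09. B9D1, of the transition zone, held 56.4 and 63.1 CPM, then 45.3, 31.3 and 30.4 CPM in WTC11, and 71.8 and 73.1 CPM, then 50.3 CPM in WA09. BBIP1, the smallest BBSome subunit, had a pooled log2 fold change of -0.69 ± 0.27. The opposite side was taken by TCTN3, a transmembrane protein of the gate, at 128 and 137 CPM in the WTC11 controls and 156 to 177 CPM in the KIF3B knockouts, and at 123 and 105 CPM against 181 CPM in WA09. BBS4, BBS7 and CEP290 were the other consistent lower members and CC2D2A the other higher one, named after their values were seen. With the length trend removed 5 members were consistent lower (16.1%) and 2 higher, without BBS4 and CC2D2A.

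Ciliogenesis and cilium disassembly genes split, with 5 of 32 consistent higher and 2 lower (median 0.09). PCM1, the core of centriolar satellites, held 151 and 152 CPM in the WTC11 controls, 182 to 206 CPM in the KIF3B knockouts, 117 and 122 CPM in the controls of WA09 and 128 CPM in the KIF3A knockout. C2CD3 and TCHP, of centriole appendages, were higher too, at pooled log2 fold changes of 0.82 ± 0.37 and 1.02 ± 0.49, and SCLT1, of the distal appendages, was lower at -0.54 ± 0.23. CCP110 and RABL2A (higher) and BBS4 (lower) complete the counts and were named after their values were seen; RABL2A is uncertain, since its near-identical copy RABL2B can share its reads. CCP110 and BBS4 were no longer consistent once the length trend was removed, and the list's median was then 0.01. Of 19 ciliary membrane and signalling genes 1 was consistent higher, UNC119B, and 2 lower, PDE6D and ARL3, the solubilizing factor for lipid-anchored proteins and the GTPase that releases its cargo (median 0.32). PDE6D and ARL3 were no longer consistent once the length trend was removed.

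The Hedgehog pathway, which signals through the cilium, held 2 consistent higher genes of 18 and 0 lower (median 0.25). GLI1, its transcriptional readout, had 1 and 5 counts in the WTC11 controls, 10, 13 and 26 in the KIF3B knockouts, 0 and 2 in the WA09 controls and 10 in the KIF3A knockout. These counts are near the limit of detection, the gene overlaps ARHGAP9, and the unadjusted p was 0.0161. GLI3, the main repressor among the GLI factors, held 14.3 and 14.4 CPM in the WTC11 controls and 16.2, 20.7 and 39.7 CPM in the KIF3B knockouts, and 9.81 and 11.1 CPM against 17.8 CPM in WA09. The range within the KIF3B knockouts was wider than the gap to the controls. By line, the list's median was 0.45 in WTC11, where 5 of 18 were above both controls and 0 below. In WA09 it was -0.10, with 6 above and 8 below, and 2 members were opposed. The pooled median was 0.15 with the length trend removed and 0.09 without WTC11 control 1.

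Hippo pathway kinases, YAP, TAZ and TEAD factors held 5 consistent higher genes of 28 (17.9%) and 0 lower, with a median of 0.28, and 24 of 28 members above 0, beside 6775 of all 13238 genes. With the length trend removed 4 of 28 were consistent higher (14.3%), without WWC1, and the median was 0.17. The members were DLG5, TEAD1, WWC1, MOB1A and LATS2. WWC1 (KIBRA), an upstream activator, held 17.6 and 28.4 CPM in the WTC11 controls and 36.2, 30.9 and 46.1 CPM in the KIF3B knockouts, and 25.5 and 20.4 CPM against 32.5 CPM in WA09. MOB1A, a kinase adaptor, differed little, at 0.21 ± 0.10. The list holds inhibitors of YAP (LATS2, WWC1, MOB1A) as well as its partner TEAD1. YAP and TAZ targets held 3 of 21 consistent higher (14.3%), 0 lower and 4 opposed, with a median of 1.04 in WTC11 and -0.13 in WA09. The 3 were TEAD1, LATS2 and AMIGO2, of which TEAD1 and LATS2 also belong to the Hippo list, so the lists are not separate results. LATS2 had 11 and 6 counts in the WTC11 controls and 18, 20 and 18 in the KIF3B knockouts. In WA09 it had 15 and 6 counts against 18. AMIGO2 rested on a KIF3A knockout of 25.4 CPM beside controls of 21.97 and 25.3 CPM. AMIGO2 lost its place with thinned counts, DESeq2 size factors or total counts. The WTC11 median of the targets leaned on KIF3B knockout 2 and was 0.63 without it; AMIGO2, for one, held 38.0 CPM there against 16.2 and 11.1 CPM in the other KIF3B knockouts and 8.32 and 9.46 CPM in the WTC11 controls.

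Matrix and adhesion genes held 4 of 38 consistent higher and 0 lower (10.5%, median 0.22). LAMB1, LAMB2 and LAMA1, chains of laminin, and COL6A1, a collagen chain, made up the 4, of which COL6A1 was lost with the length trend removed. LAMB1 held 47.1 and 47.8 CPM in the WTC11 controls and 68.7, 127.5 and 119 CPM in the KIF3B knockouts, and 69.8 and 63.1 CPM against 87.8 CPM in WA09. LAMB2 held 68.4 and 45.05 CPM, then 92.1, 122 and 120.4 CPM in WTC11, and 87.1 and 79.1 CPM, then 118 CPM in WA09. LAMA1 held 67.02 and 56.8 CPM, then 88.3, 98.9 and 134 CPM, and 54.5 and 49.8 CPM, then 74.4 CPM. In LAMA1 and LAMB2 the knockouts exceeded all 4 controls. The list as a whole did not share this: its median was 0.47 in WTC11, where 16 of 38 were above both controls and 0 below (0.31 without KIF3B knockout 2), and -0.23 in WA09, where 17 were below and 9 above. Of 32 junction and polarity genes 3 were consistent higher, DLG5, JUP (plakoglobin) and CTNNA1 (alpha-catenin), and 0 lower. Another 7 of the 32 were opposed, and the list's median was 0.30 in WTC11 and -0.009 in WA09. With the length trend removed 4 were consistent higher and 1 lower. JUP held 145 and 141 CPM, then 163, 207 and 229.5 CPM in WTC11, and 89.8 and 76.5 CPM, then 129 CPM in WA09.

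Among other signalling lists, Notch held 1 consistent higher and 3 lower genes of 28. PSEN2 and PSENEN, subunits of the gamma-secretase that cuts Notch, were among the lower ones, at -0.33 ± 0.20 and -0.29 ± 0.19, and PSENEN was lost with the length trend removed. FGF and ERK feedback genes held 0 higher and 3 lower of 21 (14.3%): SPRY1 with 83.2 and 76.1 CPM, then 54.4, 56.9 and 57.5 CPM in WTC11, and 62.0 and 89.8 CPM, then 57.5 CPM in WA09, and DUSP5 and IER3, whose KIF3A knockout differed from the nearer control by under 0.1 CPM. Both were lost with thinned or total counts, and DUSP5 also with the length trend removed. MAP3 kinases held MAP3K4 higher and MAP3K5 and MAP3K8 lower, of 16. MAP3K5 (ASK1), a stress kinase, had 43 and 54 counts in the WTC11 controls and 4, 8 and 18 in the KIF3B knockouts, and 13 and 26 against 8 in WA09. Planar cell polarity held DVL3 of 24 higher (0 with the length trend removed), BMP signalling BMPR2 of 12 lower, and canonical Wnt (14 tested) and Nodal and TGF-beta genes (19 tested) 0 in either direction.

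Pluripotency genes held 4 consistent higher of 26 (15.4%) and 1 lower, with a median of 0.06. Another 6 of the 26 were opposed, beside 13.9% of all tested genes. In WTC11 8 members were above both controls in all knockouts and 8 below. In WA09 15 were above both controls and 3 below. TRIM71, a translational repressor targeted by let-7, held 224 and 243 CPM in the WTC11 controls and 329.9, 299 and 379.9 CPM in the KIF3B knockouts, and 167 and 147 CPM against 206 CPM in WA09. SALL4, a core transcription factor, held 252 and 328 CPM, then 388, 461 and 498 CPM, and 261 and 242 CPM, then 285 CPM. LIN28B, which blocks let-7 processing, had a pooled log2 fold change of 0.47 ± 0.16, and OTX2, of the primed state, of 0.49 ± 0.23. SOX2 was the consistent lower member, at -0.15 ± 0.13, named after its values were seen. SOX2 was lost and 5 members were higher with the length trend removed; OTX2 was lost with total counts. Of 7 naive pluripotency genes tested DPPA3 was lower, but not with the length trend removed, thinned counts, DESeq2 size factors or total counts. Of lineage markers tested, mesoderm (3), endoderm (3), neural crest (3) and trophectoderm (4) held 0 consistent genes, neuroectoderm held DLK1 (lower) of 5, and fibroblast and mesenchymal markers S100A4 (lower) of 9.

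**Figure D5:**
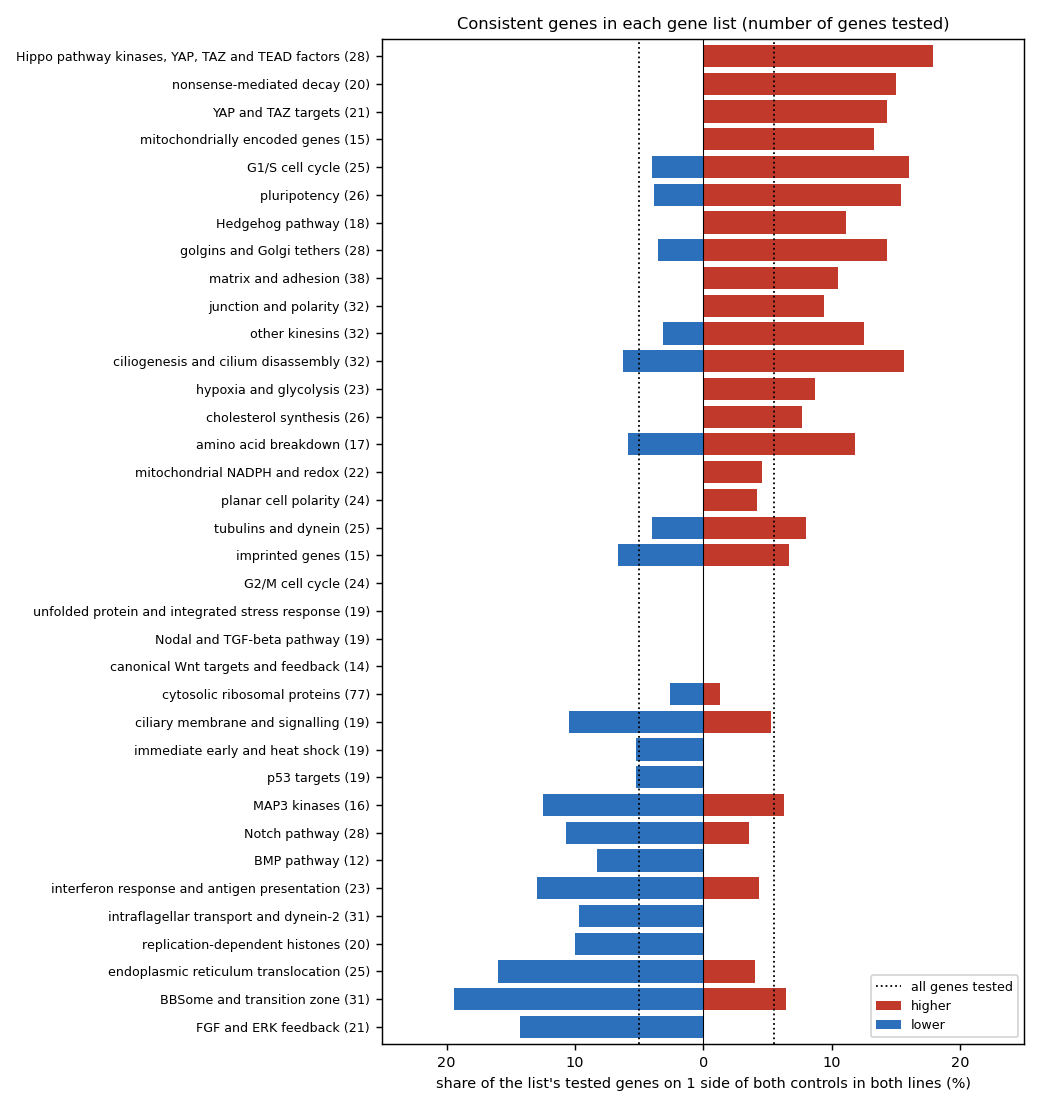
Share of the tested genes of each list that were consistent higher (red, to the right) or consistent lower (blue, to the left), in percent on both sides of 0, for lists with at least 10 genes tested (number in brackets); dotted lines mark the shares over all tested genes, 5.46% and 5.05%. The Hippo list extends farthest to the right (17.9%) and the BBSome and transition zone list farthest to the left (19.4%), and in such small lists 1 gene moves a bar by several percent. With the length trend removed, which is not drawn, other lists passed the Hippo list (14.3%). These were the mitochondrially encoded genes (86.7%, but 13.3% as counted), nonsense-mediated decay (20%), pluripotency (19.2%) and ciliogenesis (15.6%). The BBSome list (16.1%) was then passed by the 12 BMP genes (16.7%).

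Nonsense-mediated decay, which destroys messages with early stop codons, held 3 consistent higher genes of 20 (15%) and 0 lower, with a median of 0.15. Among them were SMG5, which acts late in the pathway, and the helicase DHX34. SMG5 held 141 and 147 CPM in the WTC11 controls and 255, 354 and 331 CPM in the KIF3B knockouts, and 151 and 114 CPM against 159.5 CPM in WA09, a fold of 2.18 and 1.20. DHX34 stood at 37.0 and 74.3 CPM, then 81.9, 121 and 144 CPM in WTC11, and at 49.4 and 37.5 CPM, then 59.7 CPM in WA09. With the length trend removed 4 members were consistent higher, and the median was 0.08.

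In the secretory pathway, golgins and Golgi tethers held 4 consistent higher and 1 lower of 28, among them GCC1, VPS53 (1.32 ± 0.42), BICD2 (0.64 ± 0.21) and USO1 (0.26 ± 0.11). Endoplasmic reticulum translocation genes held 1 higher, TRAM2, and 4 lower of 25 (16%), which included SEC61G, a channel subunit (-0.44 ± 0.16), SRPRB (-0.28 ± 0.12) and SRP72 (-0.20 ± 0.11). COG7 and SRP19, named after their values were seen, were the further lower members of these lists. The golgin list's median was 0.50 in WTC11 and -0.18 in WA09, where 13 of 28 were below both controls and 9 above. In that list 5 genes were opposed, and in the translocation list 9 of 25. USO1, COG7 and SRP72 were lost with the length trend removed. SEC61G was close to its controls in WA09, with 145 and 150 CPM against 143 CPM, and apart in WTC11, with 161 and 157 CPM against 106, 110.3 and 82.9 CPM.

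In the cell cycle, G1/S genes held 4 consistent higher and 1 lower of 25, with MCM2 (0.35 ± 0.13), RRM2 (0.24 ± 0.11), CDC6 (0.21 ± 0.10) and MCM7 (0.11 ± 0.07), all of DNA replication, on the higher side. TYMS (-0.10 ± 0.15) was the lower member, named after its values were seen, and was lost under each of the other scalings. G2/M genes held 0 of 24 as counted. With the length trend removed the G2/M list held 2 higher and 2 lower, and the G1/S list 2 higher and 0 lower. MCM2 and CDC6 were no longer consistent once the length trend was removed or when scaled by total counts. Cholesterol synthesis held 2 higher of 26, LSS among them (median 0.20). LSS, lanosterol synthase, held 168 and 161 CPM, then 251, 335 and 525 CPM in WTC11, and 229 and 128 CPM, then 232 CPM in WA09, where the gap between the controls exceeded the step to the knockout.

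Of 15 mitochondrially encoded genes MT-ND6 and MT-ND2, subunits of complex I, were consistent higher and 4 were opposed. As counted, the list's median was -0.14 in WTC11, where 6 of 15 were below both controls and 2 above. In WA09 it was 0.35, with 13 above both controls and 0 below. These genes are short, with a median longest transcript of 954 bases. With the length trend removed 13 of 15 were consistent higher, at a median of 0.32, so that count depends on the length adjustment. MT-ND2 was lost with thinned or total counts. Replication-dependent histones held HIST1H1E and HIST1H1C lower of 20, neither of them consistent once the length trend was removed. Polyadenylated RNA was sequenced, which histone messages of this class mostly lack. The interferon and antigen presentation list held HLA-E, IFIT1 and IRF1 lower and 1 gene higher of 23, and IFIT1 was lost with thinned counts. In that list 5 genes were opposed. In WTC11 1 member was above both controls and 10 below, and in WA09 11 above and 5 below. HLA-E, a class I molecule, held 84.6 and 95.05 CPM in the WTC11 controls and 57.8, 65.8 and 51.1 CPM in the KIF3B knockouts, and 104 and 91.0 CPM against 72.2 CPM in WA09.

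The counts of the other lists stand beside 5.46% consistent higher and 5.05% lower over all tested genes. Of p53 targets 1 of 19 was lower (DDB2, 5.26%). The median of the p53 list was 0.11 in WTC11, where 2 were above both controls and 2 below. In WA09, with its lone knockout library, it was -0.59, with 2 above and 13 below, beside 32.4% of all tested genes below. Of hypoxia and glycolysis genes 2 of 23 were higher (8.7%), HK1 and CA9, the latter on 0 to 13 counts per library. Of amino acid breakdown genes 2 of 17 were higher (AASS and DHTKD1, 11.8%) and 1 lower (OAT, 5.88%). DHTKD1 and OAT were lost with the length trend removed. Mitochondrial NADPH and redox genes held NNT of 22. The unfolded protein and integrated stress response held 0 of 19, and immediate early and heat shock genes IER3 (lower) of 19. Of the latter 6 were opposed, beside 13.9% of all tested genes. In WTC11 0 of them were above both controls and 8 below, and in WA09 10 above and 3 below. The list of tubulins and dynein held 2 higher and 1 lower of 25, the dynein regulator PAFAH1B1 (LIS1) at 0.62 ± 0.22, LMNB1, which is a lamin and no part of that machinery, and TUBE1, epsilon-tubulin, at -0.47 ± 0.21. PAFAH1B1 was lost with the length trend removed and LMNB1 with total counts. The shares of that list were 8% higher and 4% lower, and 7 members were opposed. In WTC11 4 members were above both controls and 9 below, and in WA09 17 above and 3 below. Of 15 imprinted genes MAGEL2 was higher and DLK1 lower, on 0 to 34 and 1 to 20 counts per library.

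Further genes named in the lists overlap another tested gene, so that reads of both cannot be told apart without strand: B9D1, BBIP1, CEP290, IFT43, PDE6D, SCLT1, C2CD3, TCHP and GLI1 among cilium and Hedgehog genes, AMIGO2, LAMB1, PSENEN, LIN28B and SOX2 among signalling, matrix and pluripotency genes, and RPS28, SRPRB, SRP19, COG7, CA9, IFIT1, MCM2, MCM7 and TYMS among the rest. With 1 library left out the median of the Hippo list ran from 0.21 to 0.32, that of the BBSome and transition zone list from -0.22 to -0.07 (without WTC11 control 1), that of matrix and adhesion genes from 0.09 (without KIF3B knockout 2) to 0.47 (without the KIF3A knockout), and that of nonsense-mediated decay from 0.06 (without WTC11 control 1) to 0.31 (without the KIF3A knockout).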

How the data were processed

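The deposited table holds raw read counts (whole numbers) of 58302 genes in 8 columns. The submitters' processing notes name STAR and hg38. The counter, annotation and strand setting were not given in the sources used here. Per the labels' protocols, SMART-Seq and Nextera XT kits were used. Names and transcript lengths came from GENCODE release 29.

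edgeR 4.0.16 (robust quasi-likelihood F test, TMM, filterByExpr) in R 4.3.3 compared 4 knockout with 4 control libraries, with cell line as a term. Contrasts within the lines came from a fit with a mean per group, which assumes that the single KIF3A knockout varies as the other groups do. Adjusted p-values are Benjamini-Hochberg (threshold 0.05), and log2 fold changes are given ± SE. DESeq2 1.42.0 and limma 3.58.1 were alternatives, and the edgeR fit was tested on simulated data. Total counts per library were 2161890 to 2875163, and limits from counts cover counting error only.

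Named genes were the kinesin-2 subunits, the 12 consistent genes of smallest p per direction (mean of at least 10 CPM), up to 10 per direction at least 2-fold apart in each line, and up to 4 consistent members of each of 44 lists; 5 genes that the rule takes are not reported here. Members and lists were chosen with earlier results of these data known.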

Additional observations from a re-analysis of the deposited data

Results flagged for a closer look

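SFRP2, a secreted Wnt antagonist, was lower in every KIF3B knockout than in both WTC11 controls and higher in the KIF3A knockout than in both WA09 controls. Its level was 304 and 346 CPM in the WTC11 controls, 301, 280 and 277 CPM in the KIF3B knockouts, 283 and 284 CPM in the controls of WA09 and 306 CPM in the KIF3A knockout. The KIF3A effect minus the KIF3B effect was 0.28 on the log2 scale (-0.18 in WTC11 and 0.10 in WA09), and the edgeR test of that difference did not pass (adjusted p = 0.637). Among the named genes it was the 1 opposed gene. Most named genes were chosen for being consistent, so that count was largely set by the choice. Of all tested genes 1839 were opposed.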

How the results depend on the processing

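With 3 and 1 knockout libraries, a gene's place rests on few values. Scaling by DESeq2 size factors gave 741 consistent higher and 671 lower genes, scaling by total counts 667 and 713, and thinning each library to 2161890 counts (an alternative chosen after seeing the data) 683 and 664. Leaving out 1 library in turn gave 842 to 1516 higher, 843 to 1358 lower and 2136 to 3154 opposed genes, more because fewer libraries must lie on 1 side; without the KIF3A knockout no value could be had. Genes called numbered 37 with DESeq2 (0.279%) and 154 with edgeR without a filter on low counts (0.584% of 26388; 141 higher, 13 lower), against 0 with edgeR as run and 0 with limma voom. Unadjusted p under 0.05 held for 1957 genes without the filter, 638 with detected genes as a covariate, and 605 (without WTC11 control 1), 688 (without KIF3B knockout 3) to 2296 (without the KIF3A knockout) with 1 library left out. A replicate block by guide gave 1211 such genes and 0 calls; guide numbers did not pair the WTC11 libraries (correlation -0.01 over genes). KIF3C (0.07 as fitted) turned to -0.047 with the length trend removed and -0.021 with a covariate for the genes detected, and with 1 library left out ran from -0.22 (without WTC11 control 2) to 0.35, below 0 also without KIF3B knockout 3 (-0.037). KIF17 (-0.49) ran from -1.52 to 0.72, its value without the KIF3A knockout; the cause was not tested. Of the named genes' other values, 1955 kept their side of the threshold and 45 passed it, all of those under DESeq2 or without the filter.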

Other observations

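Genes with symbols of the zinc finger families ZNF, ZSCAN, ZKSCAN and ZFP, many of them DNA-binding repressors, include ZNF594, ZNF318 and ZNF607 and were grouped by symbol after the values were seen. Of 496 tested, 32 were consistent higher (6.45%) and 11 lower (2.22%), beside 5.46% and 5.05% of all tested genes, with a median pooled log2 fold change of 0.11. Their members share similar sequences, and no test was made. These shares were not adjusted for transcript length. Over all tested genes 10.1% of the shortest of the 5 length groups and 2.68% of the longest were consistent lower. By chromosome the median pooled log2 fold change lay between -0.04 (chromosome 19) and 0.05 (chromosome 16) over the autosomes and X. Chromosome 20, which carries KIF3B, had a median of 0.04 in the KIF3B knockouts, and chromosome 5, which carries KIF3A, of -0.04 in the KIF3A knockout.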
